A study of Mus musculus with 6 samples.

Results

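The antioxidant and glutathione genes described here are 41 genes of the mouse that encode superoxide dismutases, catalase, glutathione peroxidases, peroxiredoxins, thioredoxins, glutaredoxins, the enzymes that make and recycle glutathione, glutathione transferases, and the transcription factor Nrf2 with its inhibitor Keap1. They were chosen by gene symbol, and all 41 were found among the 24972 genes of the table. All 41 also passed the filter of a mean of at least 10 normalized counts, as did 12477 genes in all. RNA was sequenced from cardiomyocytes of 6 MX1gfp mice, a strain in which green fluorescent protein reports on the interferon-induced gene Mx1, so that vehicle and treated mice alike carry the altered allele. The vehicle group of 3 mice was given phosphate buffered saline, and the doxorubicin group of 3 mice was given a single dose of 25 mg per kg, each by intraperitoneal injection of 100 microlitres. Ventricular cells were collected 48 hours later by collagenase digestion and settled by gravity, which enriches for myocytes but does not sort them. No age or sex is stated in the labels.

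Reactive oxygen species arise mainly as superoxide from the respiratory chain, and superoxide dismutases turn superoxide into hydrogen peroxide. Catalase breaks the peroxide down by itself, while glutathione peroxidases and peroxiredoxins reduce it with electrons from glutathione or thioredoxin, whose reductases are in turn fed by NADPH. Under resting conditions Keap1 holds Nrf2, encoded by Nfe2l2, for degradation. Electrophiles and oxidants modify Keap1, and Nrf2 then activates genes of glutathione synthesis, thioredoxin reduction and detoxification through antioxidant response elements. Doxorubicin is an anthracycline that poisons topoisomerase II and whose quinone can cycle electrons to oxygen, and the heart, rich in mitochondria, is the organ most known for its toxicity.

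The libraries differed in more than their treatment. Estimated reads numbered 7710000 to 11400000 under vehicle and 3670000 to 6170000 under doxorubicin, so that depth and treatment cannot be told apart. Doxorubicin replicate 1 lay close to the vehicle libraries, with Spearman correlations of 0.977 to 0.982 across genes, against 0.896 to 0.914 for replicate 2 and 0.860 to 0.876 for replicate 3. By Xist and Ddx3y transcripts, doxorubicin replicate 2 grouped with vehicle replicates 1 and 2, and doxorubicin replicates 1 and 3 grouped with vehicle replicate 3. All 10 cardiomyocyte markers were detected, with a summed level of 632044 to 729036 normalized counts under vehicle and of 545182, 194629.8 and 161214 in the doxorubicin mice by replicate. In bulk RNA of this kind, fewer cells of a type and less RNA per cell cannot be told apart.

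Between doxorubicin and vehicle the 41 genes did not form a single block. The 8 whose products work mainly in mitochondria were lower in every doxorubicin library than in any vehicle library. Several genes of glutathione synthesis and of the Nrf2 response, and Gpx3, stood high in doxorubicin replicates 2 and 3 and near the vehicle level in replicate 1. Over all 41 genes, 18 had a positive and 23 a negative log2 fold change, with a median of -0.093 and a range from -1.04 in Gstk1 to 1.90 in Gpx3. The median over all genes tested was -0.0046. With the library totals made equal, a scaling that placed the all-gene median at 0.30, the split was 25 positive and 16 negative.

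At a Benjamini-Hochberg adjusted p under 0.05, limma called 0 of the 41 genes higher and 0 lower with all 6 libraries, as it did for 0% of all genes tested in either direction. At an unadjusted p under 0.05, 4 of the 41 were higher against 16.7% of all genes, and 12 were lower against 19.3%. Separation without overlap was seen in 2 of the 41 on the higher side, against 19.2% of all genes, and in 14 on the lower side, against 22.6%, or 16 in either direction, against 41.8%. With equal totals it was seen in 12 on the higher side, against 36.8% of all genes, and in 10 on the lower side, against 10.0%. A gene is said not to overlap when all 3 values of a group lie above all 3 of the other. The smallest adjusted p of the 41 was 0.0859, shared by 8 of them and equal to the smallest of all genes. No gene below is therefore said to have changed with all 6 libraries, and values are given in its place.

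**Figure D1:**
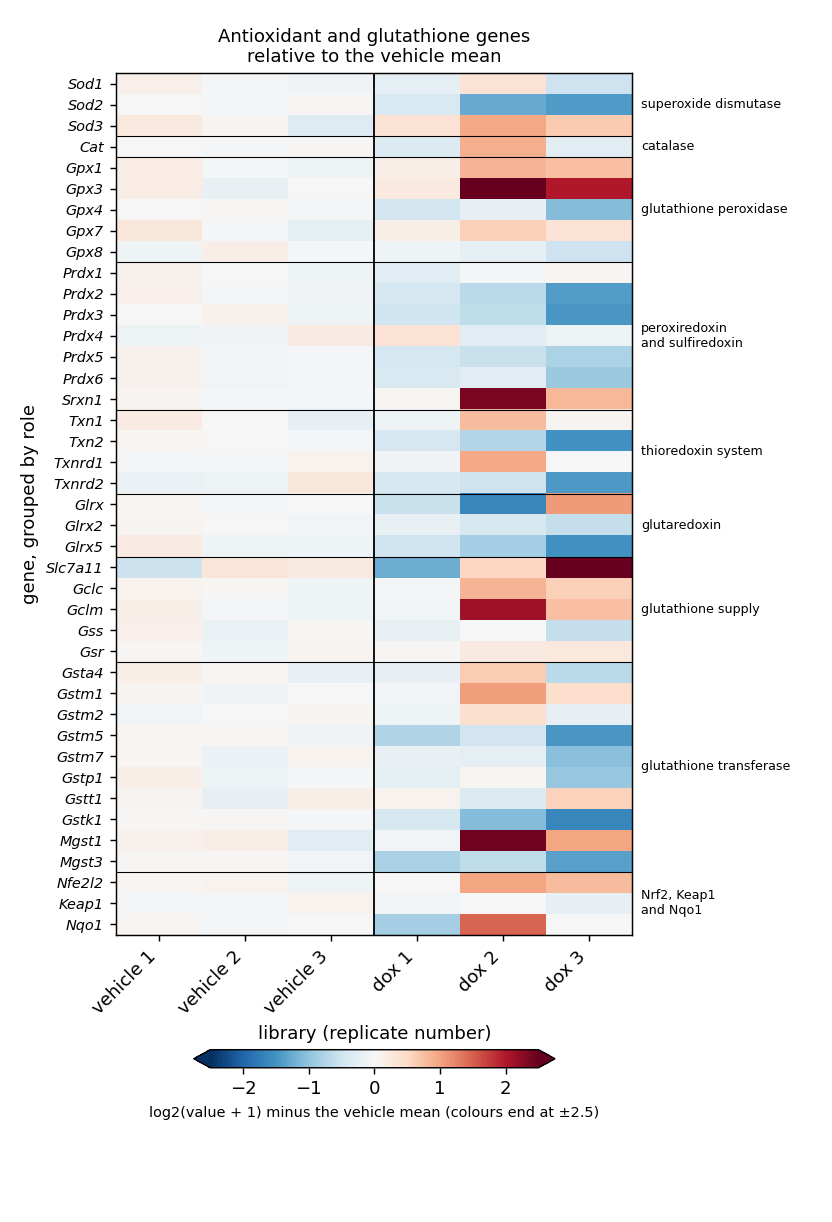
Each row is 1 of the 41 genes, grouped by role, and each column is a library (dox stands for doxorubicin). Colour shows log2(value + 1) minus the mean of the 3 vehicle libraries, red for higher and blue for lower, and ends at ±2.5. Doxorubicin 1 is pale in most rows, doxorubicin 2 is deep red in Gpx3, Mgst1, Srxn1 and Gclm, and doxorubicin 3 is deep red in Slc7a11 and blue in the mitochondrial genes.

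Doxorubicin replicate 1 lay below every vehicle library in 26 of the 41 genes, against 34.6% of all genes, and above every vehicle library in 3, against 29.4%. Replicate 2 lay above in 19 (39.8% of all genes) and below in 18 (40.3%). Replicate 3 lay above in 14 (42.3%) and below in 23 (43%). The median absolute log2 difference from the vehicle mean was 0.24 in replicate 1, 0.63 in replicate 2 and 0.75 in replicate 3. Replicate 2 held the highest doxorubicin value of 24 genes and replicate 3 the lowest of 21.

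Levels were compared between genes per kilobase of the longest coding transcript in GENCODE M21. In the vehicle libraries Gpx4 was highest, at a mean of 5024 normalized counts per kilobase. Sod1 (2801), Prdx5 (2320.1), Mgst3 (1816), Gstm1 (1599.5) and Prdx3 (1579.8) followed. The enzymes of glutathione synthesis were among the lowest on this scale, with Gss at 50.9, Gclc at 38.4 and Gclm at 25.0, and Slc7a11 was last at 0.158. A long untranslated end, as in Sod2 with a transcript of 5861 bases, lowers a value on this scale. Some transcripts share sequence of at least 97% identity over 75 bases with another annotated gene, for 72.5% of Sod1, 73.7% of Gpx4 and 51.0% of Gstm1, each with a gene that has no row in the table. Gstp1 shares 86.1% with Gstp2, which has its own row, and how the counting divided their reads is not known.

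The superoxide dismutases had log2 fold changes of either sign. Sod2, the manganese enzyme of the mitochondrial matrix (chromosome 17, 13007839 to 13018119, GRCm38), was lower, and Sod3, the secreted enzyme of the vessel wall and extracellular space (chromosome 5, 52363804 to 52369738), was higher. Sod2 stood at 5443, 5363 and 5536 normalized counts in the 3 vehicle mice, by replicate, and at 4209, 2287 and 2039 in the 3 doxorubicin mice. Every doxorubicin library was below every vehicle library, with replicates 2 and 3 -1.25 and -1.42 log2 units from the vehicle mean. Sod2 differed by -1.01 (SE 0.29, limma adjusted p 0.0859) on the log2 scale. Normalized counts of Sod3 were 293, 259 and 197 under vehicle and 318, 482 and 387 after doxorubicin. These groups too did not overlap, although the highest vehicle library and doxorubicin replicate 1 were close. Sod3 differed by 0.66 (SE 0.21, limma adjusted p 0.0878) on the log2 scale.

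Sod1, the copper-zinc enzyme of the cytosol, had overlapping groups. For Sod1, the vehicle mice gave 1962, 1731 and 1695 normalized counts and the doxorubicin mice 1511, 2306 and 1252. Sod1 differed by -0.13 (SE 0.24, limma adjusted p 0.711) on the log2 scale, a value that changed sign to 0.17 with equal totals, to 0.053 with quantile normalization and to 0.059 without doxorubicin replicate 3. Catalase, the haem enzyme of peroxisomes (chromosome 2, 103453904 to 103485153), was high in a single library. Cat stood at 2204, 2113 and 2240.0 normalized counts in the 3 vehicle mice, by replicate, and at 1733, 4074 and 1808 in the 3 doxorubicin mice. Replicate 2 thus held 0.90 log2 units more than the vehicle mean while replicates 1 and 3 lay below all vehicle libraries. Cat differed by 0.10 (SE 0.33, limma adjusted p 0.851) on the log2 scale, by 0.31 without replicate 1, by -0.30 without replicate 2 and by 0.40 with equal totals.

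Among the glutathione peroxidases, Gpx3 had the largest difference of all 41 genes. Gpx3 (chromosome 11, 54902854 to 54910387) encodes the selenoprotein that circulates in plasma. Normalized counts of Gpx3 were 1453, 1123 and 1298 under vehicle and 1512, 14211 and 5137 after doxorubicin. Replicate 1 exceeded the highest vehicle library only slightly, whereas replicate 2 lay 3.47 and replicate 3 2.00 log2 units above the vehicle mean. Gpx3 differed by 1.90 (SE 0.70, limma adjusted p 0.105) on the log2 scale. Without doxorubicin replicate 1 the difference was 2.73, without replicate 2 1.12 and without replicate 3 1.85.

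Gpx1, the abundant cytosolic and mitochondrial glutathione peroxidase (chromosome 9, 108339080 to 108340342), was higher in the same 2 libraries. For Gpx1, the vehicle mice gave 526, 444 and 422 normalized counts and the doxorubicin mice 521, 837 and 778. Replicate 1 lay within the vehicle range. Gpx1 differed by 0.59 (SE 0.21, limma adjusted p 0.0984) on the log2 scale, and by 0.89 with equal totals. Gpx4 (chromosome 10, 80047166 to 80056439), which reduces lipid peroxides in membranes and guards against ferroptosis, was lower in all 3 doxorubicin libraries. Gpx4 stood at 5056, 5095 and 4847 normalized counts in the 3 vehicle mice, by replicate, and at 3644, 4308 and 2348 in the 3 doxorubicin mice. Those groups did not overlap. Gpx4 differed by -0.59 (SE 0.26, limma adjusted p 0.145) on the log2 scale, by -0.33 without replicate 3, by -0.28 with equal totals and by -0.23 with quantile normalization. The endoplasmic reticulum members Gpx7 and Gpx8 had overlapping groups and log2 fold changes of 0.37 and -0.29.

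The 6 peroxiredoxins, thiol peroxidases that depend on thioredoxin or glutathione, had log2 fold changes from -0.86 to -0.019, and in 4 of them (Prdx2, Prdx3, Prdx5 and Prdx6) every doxorubicin library was below every vehicle library. Prdx3 (chromosome 19, 60864066 to 60874538) is the peroxidase of the mitochondrial matrix. Normalized counts of Prdx3 were 2334, 2509 and 2162 under vehicle and 1648, 1504 and 855 after doxorubicin. Replicate 3 held the lowest value, at -1.45 log2 units from the vehicle mean. Prdx3 differed by -0.86 (SE 0.26, limma adjusted p 0.0859) on the log2 scale, by -0.57 without replicate 3 and by -0.56 with equal totals. Prdx5 (chromosome 19, 6906697 to 6910106), found in mitochondria and peroxisomes, had similar values in the 3 doxorubicin libraries. For Prdx5, the vehicle mice gave 3169, 2795 and 2819 normalized counts and the doxorubicin mice 2166, 1992 and 1696. The doxorubicin libraries lay -0.43, -0.55 and -0.79 log2 units from the vehicle mean. Prdx5 differed by -0.59 (SE 0.17, limma adjusted p 0.0859) on the log2 scale, by -0.29 with equal totals and by -0.36 with quantile normalization.

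Prdx2, the cytosolic peroxiredoxin abundant in red cells, differed by -0.84. Erythroid markers, beside it, summed to 1212 to 2105 normalized counts under vehicle and to 9027, 249.8 and 421 in the doxorubicin mice by replicate, with Hbb-bs at 0 in all 6 libraries. Their highest sum was in replicate 1, where Prdx2 already lay -0.45 log2 units from the vehicle mean, and the part of red cells in the values of Prdx2, and of Cat and Gpx1, which red cells also hold, was not tested. Prdx2 also overlaps exons of Junb and Rnaseh2a on the opposite strand, and Prdx5 those of Trmt112, and without knowledge of the use of strand their reads cannot be told apart.

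Srxn1, the sulfiredoxin that restores overoxidized peroxiredoxins (chromosome 2, 152105524 to 152111376), had a positive log2 fold change. The 6 peroxiredoxins had negative ones on the deposited scale. Those of Prdx1 (-0.093) and Prdx4 (-0.019) were small, with overlapping groups, and turned positive with equal totals. Srxn1 stood at 199.6, 187 and 186 normalized counts in the 3 vehicle mice, by replicate, and at 197, 973 and 340.0 in the 3 doxorubicin mice. Replicate 1 was inside the vehicle range, and replicates 2 and 3 lay 2.35 and 0.83 log2 units above the vehicle mean. Srxn1 differed by 1.08 (SE 0.51, limma adjusted p 0.166) on the log2 scale. The difference was 0.44 without replicate 2 and 1.59 without replicate 1.

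In the thioredoxin system the cytosolic pair had positive and the mitochondrial pair negative log2 fold changes. Txn2 (chromosome 15, 77915051 to 77928994), the mitochondrial thioredoxin, was lower. Normalized counts of Txn2 were 2084, 1991 and 1933 under vehicle and 1502, 1213 and 699 after doxorubicin. The groups did not overlap, and replicate 3 was lowest. Txn2 differed by -0.88 (SE 0.28, limma adjusted p 0.0863) on the log2 scale, by -0.57 without replicate 3 and by -0.58 with equal totals. Its reductase Txnrd2 differed by -0.79, again without overlap. Cytosolic Txn1 differed by 0.25 with overlapping groups. Txnrd1 (chromosome 10, 82833951 to 82897724), the cytosolic selenoprotein reductase, was high in replicate 2 alone. For Txnrd1, the vehicle mice gave 499, 499 and 547 normalized counts and the doxorubicin mice 481, 1006 and 514. Txnrd1 differed by 0.29 (SE 0.28, limma adjusted p 0.471) on the log2 scale, by 0.48 without replicate 1, by -0.048 without replicate 2 and by 0.59 with equal totals.

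Glutaredoxins reduce protein disulfides that involve glutathione. Glrx5 (chromosome 12, 105032618 to 105040911), which serves iron-sulfur cluster assembly in mitochondria, had the largest difference of the 3. Glrx5 stood at 859, 689 and 689 normalized counts in the 3 vehicle mice, by replicate, and at 526, 409.9 and 259.6 in the 3 doxorubicin mice. Every doxorubicin value was below every vehicle value. Glrx5 differed by -0.95 (SE 0.26, limma adjusted p 0.0859) on the log2 scale. Glrx2, the mitochondrial glutaredoxin, differed by -0.39 without overlap. Cytosolic Glrx (chromosome 13, 75839885 to 75850151) split the doxorubicin libraries. Normalized counts of Glrx were 270.3, 253 and 260.3 under vehicle and 177, 84.0 and 546 after doxorubicin. It was -1.63 log2 units from the vehicle mean in replicate 2 and 1.06 in replicate 3, and the difference of -0.38 (SE 0.58, limma adjusted p 0.663) became 0.25 without replicate 2, -1.09 without replicate 3 and -0.075 with equal totals.

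The 8 mainly mitochondrial genes (Sod2, Prdx3, Prdx5, Txn2, Txnrd2, Glrx2, Glrx5 and Gstk1) shared a direction. All 8 had groups that did not overlap, against 22.6% of all genes on the lower side. With equal totals it was 7 of 8, against 10.0%, and their median was -0.57. All 8 kept a negative log2 fold change under each scaling and with each library left out. Their median was -0.87, and their medians were -0.41, -0.68 and -1.44 in doxorubicin replicates 1 to 3. Each of the 8 was highest in replicate 1 and lowest in replicate 3 among the doxorubicin libraries. Without replicate 3 the median was -0.57. The other 33 genes had a median of 0.097, of which 18 were positive and 15 negative. Cardiomyocyte markers, given beside these genes because myocytes are rich in mitochondria, were lower in the same libraries, with medians of -0.43, -1.66 and -2.12. Their part in the result was not tested.

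**Figure D2:**
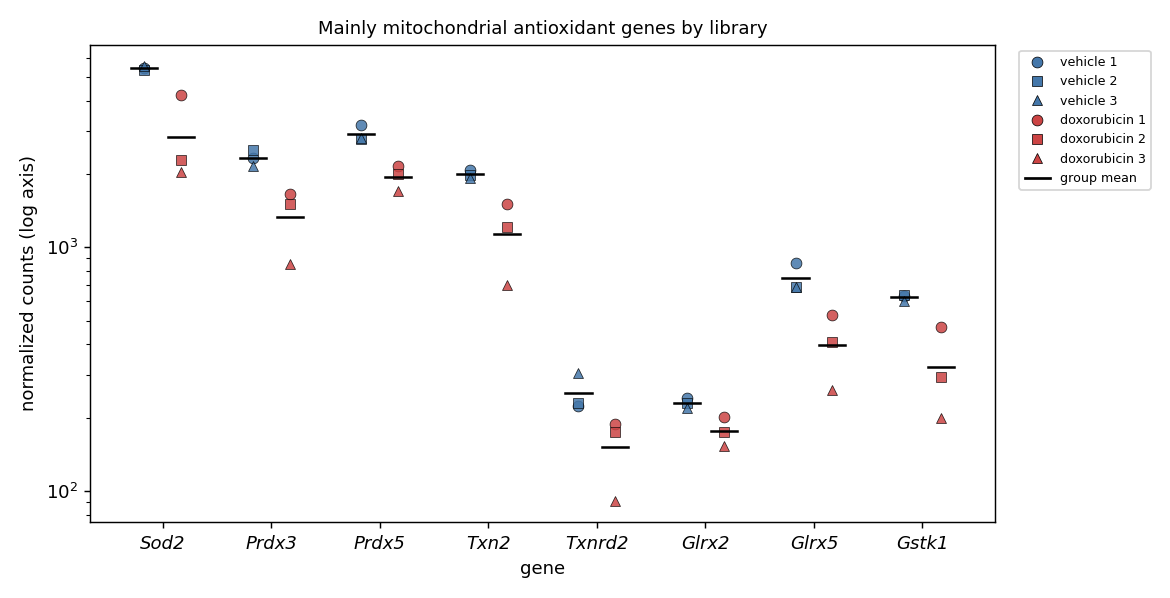
Normalized counts (log axis) of the 8 mainly mitochondrial genes in each library, with vehicle in blue, doxorubicin in red, the replicate shown by the marker shape and the group mean by a bar. For each gene the 3 doxorubicin points lie below the 3 vehicle points, with doxorubicin 3 lowest.

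Glutathione is made from cysteine, brought in as cystine by the Slc7a11 transporter, by glutamate-cysteine ligase (catalytic subunit Gclc, modifier subunit Gclm) and then glutathione synthetase (Gss), and is recycled by glutathione reductase (Gsr). Of these 5 genes, 4 had a positive log2 fold change, and in none did the groups separate fully. Gclm (chromosome 3, 122245487 to 122267215) differed most among the 4 enzymes. For Gclm, the vehicle mice gave 154, 137 and 128 normalized counts and the doxorubicin mice 133, 609 and 234. Replicate 1 was within the vehicle range, and replicates 2 and 3 were above it. Gclm differed by 0.94 (SE 0.48, limma adjusted p 0.199) on the log2 scale, by 1.44 without replicate 1 and by 0.34 without replicate 2. Gclc (chromosome 9, 77754535 to 77794489) had the same order at a smaller size. Gclc stood at 139, 134 and 122 normalized counts in the 3 vehicle mice, by replicate, and at 129, 236 and 200.0 in the 3 doxorubicin mice. Gclc differed by 0.47 (SE 0.23, limma adjusted p 0.181) on the log2 scale, by 0.72 without replicate 1, by 0.29 without replicate 2 and by 0.77 with equal totals.

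Gsr had a small difference. Normalized counts of Gsr were 176, 160.1 and 179.9 under vehicle and 175, 202 and 206 after doxorubicin. Gsr differed by 0.17 (SE 0.15, limma adjusted p 0.408) on the log2 scale, and by 0.47 with equal totals, with replicates 2 and 3 a little above the vehicle range. Gss differed by -0.26 with overlapping groups and overlaps exons of Acss2 on the opposite strand. Slc7a11 (chromosome 3, 50364936 to 50499087) was near 0 in 5 libraries. For Slc7a11, the vehicle mice gave 0.648, 1.93 and 1.78 normalized counts and the doxorubicin mice 0, 2.39 and 103. Slc7a11 differed by 1.57 (SE 1.66, limma adjusted p 0.516) on the log2 scale, which rested on replicate 3 and was -0.37 without it and 2.98 without replicate 1. That library also held the highest macrophage marker sum, 15615 against 2583 to 2791 in the vehicle libraries, and the part of macrophages in the Slc7a11 value was not tested.

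Glutathione transferases conjugate glutathione to electrophiles. Of 10 genes, 4 had a positive and 6 a negative log2 fold change, and the groups did not overlap in 4, all lower (Gstm5, Gstm7, Gstk1 and Mgst3). Mgst3 (chromosome 1, 167371966 to 167393841), a membrane-bound transferase and peroxidase, had the smallest unadjusted p of the 41 genes. Mgst3 stood at 2039, 2037 and 1899 normalized counts in the 3 vehicle mice, by replicate, and at 1131, 1287 and 772 in the 3 doxorubicin mice. All doxorubicin values lay below all vehicle values, including replicate 1. Mgst3 differed by -0.94 (SE 0.21, limma adjusted p 0.0859) on the log2 scale. Its microsomal relative Mgst1 (chromosome 6, 138140527 to 138156755) was high instead. Normalized counts of Mgst1 were 464, 484 and 359.9 under vehicle and 411, 2303 and 857 after doxorubicin. Replicate 2 stood 2.41 log2 units above the vehicle mean, replicate 3 0.98, and replicate 1 within the vehicle range. Mgst1 differed by 1.11 (SE 0.55, limma adjusted p 0.182) on the log2 scale, by 1.70 without replicate 1 and by 0.46 without replicate 2.

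The 4 mu-class genes lie together on chromosome 3 and had unlike values. Gstm1 (chromosome 3, 108012250 to 108017973) had the highest level per kilobase of the 4. For Gstm1, the vehicle mice gave 2156, 1951 and 2079 normalized counts and the doxorubicin mice 1976, 4229 and 2785. It was above the vehicle range in replicates 2 and 3 and inside it in replicate 1. Gstm1 differed by 0.47 (SE 0.28, limma adjusted p 0.25) on the log2 scale, by 0.74 without replicate 1 and by 0.19 without replicate 2. With equal totals the difference was 0.77 and with quantile normalization 0.78. Gstm2 differed by 0.030, Gstm7 by -0.50 and Gstm5 by -0.90, the last with an opposite-strand neighbour, 4933431E20Rik, over its exons. Differences between these genes were not tested.

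Gsta4 (chromosome 9, 78191966 to 78209349), which conjugates the lipid peroxidation product 4-hydroxynonenal, had overlapping groups. Gsta4 stood at 585, 534 and 460.5 normalized counts in the 3 vehicle mice, by replicate, and at 456, 815 and 330.2 in the 3 doxorubicin mice. Replicate 2 was above and replicates 1 and 3 were below the vehicle range. Gsta4 differed by -0.075 (SE 0.31, limma adjusted p 0.879) on the log2 scale, turning to 0.23 with equal totals and 0.22 without replicate 3. Gstp1 differed by -0.38 and Gstt1 by 0.11, both with overlapping groups. Gstk1, the mitochondrial and peroxisomal kappa-class enzyme, had the lowest log2 fold change of the 41 genes, -1.04.

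Nfe2l2 (chromosome 2, 75675513 to 75704663), which encodes Nrf2, was higher in replicates 2 and 3. Normalized counts of Nfe2l2 were 618, 637 and 547 under vehicle and 606, 1192 and 1044 after doxorubicin. Replicate 1 was inside the vehicle range. Nfe2l2 differed by 0.60 (SE 0.26, limma adjusted p 0.136) on the log2 scale, and by 0.90 with equal totals. Keap1 (chromosome 9, 21229730 to 21239332) had a small difference. For Keap1, the vehicle mice gave 491, 495 and 544 normalized counts and the doxorubicin mice 488, 504 and 442. Replicates 1 and 3 were slightly below the vehicle range and replicate 2 was inside it. Keap1 differed by -0.094 (SE 0.13, limma adjusted p 0.633) on the log2 scale, with a sign that changed to 0.21 with equal totals. Nqo1 (chromosome 8, 107388225 to 107403205), the quinone reductase often used as a readout of Nrf2, differed widely among the doxorubicin libraries. Nqo1 stood at 477, 449 and 454 normalized counts in the 3 vehicle mice, by replicate, and at 253, 1269.6 and 459 in the 3 doxorubicin mice. It was below the vehicle range in replicate 1, above it in replicate 2 and inside it in replicate 3. Nqo1 differed by 0.20 (SE 0.51, limma adjusted p 0.796) on the log2 scale, by 0.73 without replicate 1, by -0.43 without replicate 2 and by 0.50 with equal totals.

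The 10 genes listed as known Nrf2 targets were Nqo1, Gclc, Gclm, Srxn1, Txnrd1, Slc7a11, Gsr, Prdx1, Gstm1 and Txn1. Of them 9 had a positive log2 fold change and Prdx1 (-0.093) a negative one, with a median of 0.38. On the deposited scale the groups separated in none, since replicate 1 lay within or below the vehicle range. Replicate 1 held the lowest doxorubicin value of all 10. In replicate 2, 9 of the 10 lay above every vehicle library, against 39.8% of all genes. In replicate 3 it was 6 of the 10, against 42.3%, and in replicate 1 it was 0, against 29.4%. Their medians were -0.080, 0.90 and 0.35 in replicates 1 to 3. Leaving out replicate 1 gave a median of 0.73, and leaving out replicate 2 gave 0.17 with 6 positive and 4 negative. The other 31 genes, whose dependence on Nrf2 was not tested, had a median of -0.38. They include all 8 mainly mitochondrial genes, whose median was -0.87. With equal totals or quantile normalization all 10 were positive, with medians of 0.68 and 0.39. The groups separated on the higher side in 5 of the 10 with equal totals, against 36.8% of all genes.

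**Figure D3:**
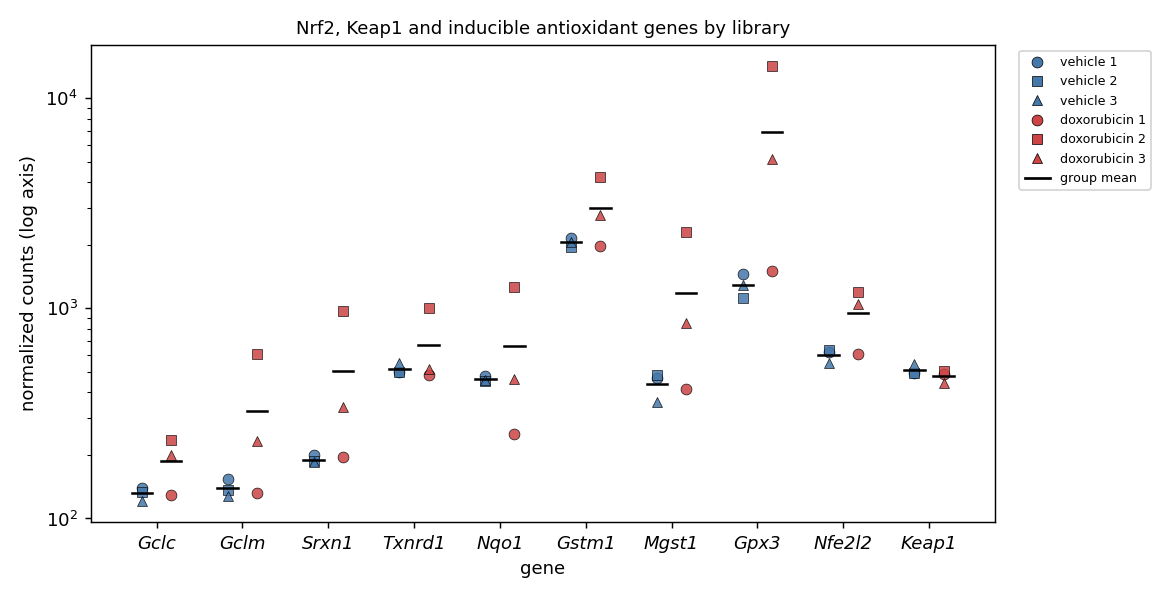
Normalized counts (log axis) of Nfe2l2, Keap1 and 8 other genes in each library, with vehicle in blue, doxorubicin in red, the replicate shown by the marker shape and the group mean by a bar. Doxorubicin 2 (red square) is the highest of the doxorubicin points in each gene shown, and doxorubicin 1 (red circle) stays near the vehicle points except in Nqo1, where it is lower.

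Promoter windows from RefSeq (build GRCm38.p6, 250 bases before to 50 after a start site) were found for 36 of the 41 genes and searched for the core of the antioxidant response element, TGACNNNGC, on both strands. It was present for 9 of the 36 (25.0%), against 3781 of 27025 genes with such a window (14.0%). Of the Nrf2 targets with a window it was present for 4 of 8 (50.0%), and of the other genes for 5 of 28 (17.9%). The letters are a description, not a site of binding. The core can overlap the AP-1 motif TGACTCA, searched also as its reverse complement, which 5.9% of all genes hold in such a window, and does so here in Prdx1. All 9 matches are shown with 10 bases on each side and the core in capitals. They are read 5′ to 3′ on the strand that carries TGACNNNGC, and let the Nrf2 targets be compared with other genes.
Gclm: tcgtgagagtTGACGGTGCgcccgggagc
Srxn1: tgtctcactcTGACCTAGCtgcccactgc
Txnrd1: cgtgtcagaaTGACAAAGCaaaaatccag
Prdx1: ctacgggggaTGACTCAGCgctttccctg
Mgst1: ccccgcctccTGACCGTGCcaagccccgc
Nfe2l2: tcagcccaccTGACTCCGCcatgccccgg
Sod1: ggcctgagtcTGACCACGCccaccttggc
Gstm5: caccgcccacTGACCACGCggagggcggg
Gstm7: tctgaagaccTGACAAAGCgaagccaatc

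The same letters, TGACCACGC, stood in Sod1 and Gstm5, and TGACAAAGC in both Txnrd1 and Gstm7, although Gstm5 and Gstm7 were lower in every doxorubicin library and Txnrd1 was high in replicate 2. The match lies 134 bases before the start site in Gclm, 56 in Mgst1 and 133 in Prdx1, and 28 bases after it in Srxn1, measured at its first base on the strand of the gene. The 250 bases upstream of Gclm and Mgst1 are printed in full, on the strand of the gene, because among genes with a match ahead of the start site these had the largest log2 fold changes. Capitals mark the core, here in its reverse form GCNNNGTCA. The gene model of Gclm given above begins inside its window, since the tables differ in the start site used. The window of Gclm covers chr3:122245307-122245556 on the plus strand and that of Mgst1 chr6:138140277-138140526 on the plus strand.
Gclm: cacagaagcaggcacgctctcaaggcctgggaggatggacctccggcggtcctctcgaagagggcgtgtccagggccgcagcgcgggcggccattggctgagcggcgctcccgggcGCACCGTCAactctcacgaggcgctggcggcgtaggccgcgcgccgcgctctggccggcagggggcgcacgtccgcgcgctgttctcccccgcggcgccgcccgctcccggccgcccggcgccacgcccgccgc
Mgst1: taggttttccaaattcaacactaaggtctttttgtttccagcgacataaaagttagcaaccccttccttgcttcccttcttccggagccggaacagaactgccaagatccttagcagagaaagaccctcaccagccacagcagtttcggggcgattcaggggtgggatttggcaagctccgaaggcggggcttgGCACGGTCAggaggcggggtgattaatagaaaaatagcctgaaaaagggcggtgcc

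Leaving out doxorubicin replicate 1, the library nearest to the vehicle libraries, brought 21 of the 41 genes (51.2%) under an adjusted p of 0.05, against 41.1% of all genes, with 9 higher against 19.3% of all genes and 12 lower against 21.8%. The remaining 2 libraries were not chosen independently of their difference from vehicle, so these calls are no separate evidence. The 9 were Sod3, Gpx1, Gpx3, Srxn1, Gclc, Gclm, Gstm1, Mgst1 and Nfe2l2. The 12 were Prdx2, Prdx6, Gstm5, Mgst3 and all 8 mainly mitochondrial genes. In that comparison Gpx3 differed by 2.73 (SE 0.38, adjusted p 0.00131), Nfe2l2 by 0.90 (SE 0.15, adjusted p 0.00269) and Sod2 by -1.33 (SE 0.17, adjusted p 0.000974) on the log2 scale with limma. Leaving out replicate 2 instead called 0 of the 41 genes, against 0.00801% of all genes, and leaving out replicate 3 called 0, against 0% of all genes.

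**Figure D4:**
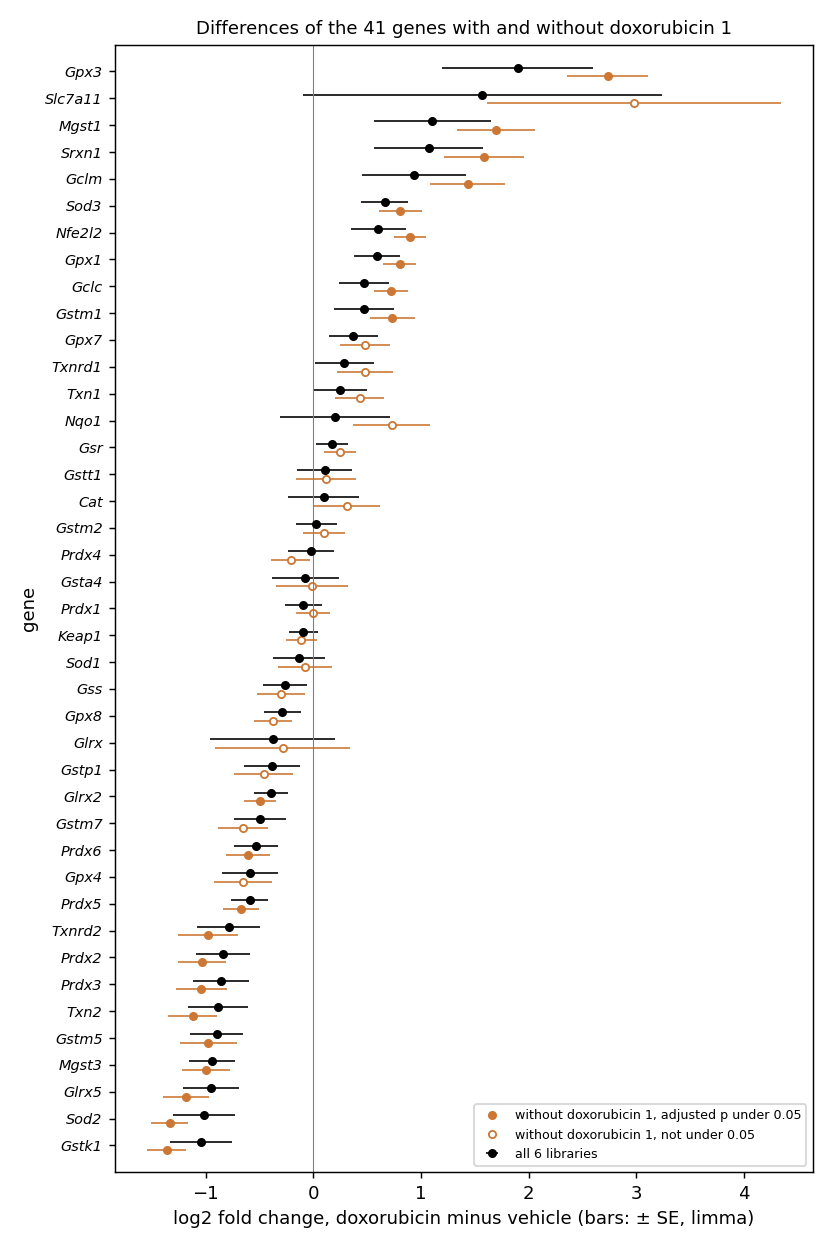
Log2 fold change of each of the 41 genes with all 6 libraries (black) and without doxorubicin 1 (orange, filled where the adjusted p was under 0.05), with bars of ± 1 SE from limma. The filled points are Sod3, Gpx1, Gpx3, Srxn1, Gclc, Gclm, Gstm1, Mgst1 and Nfe2l2 on the higher side and 12 genes on the lower side.

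Values within the Xist and Y-linked classes are given without a test, since each class holds a single library of a group. Doxorubicin replicate 2 minus vehicle replicates 1 and 2 was 3.47 for Gpx3, 2.33 for Srxn1 and -1.24 for Sod2 on the log2 scale. Doxorubicin replicates 1 and 3 minus vehicle replicate 3 was 1.10, 0.48 and -0.92 for the same genes. Nqo1 differed by 1.45 in the first class and -0.41 in the second, and Cat by 0.92 and -0.34.

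Markers of other cell types differed between these libraries, and their part in the values above was not tested. Summed macrophage markers, all 10 of which were detected, were 2583 to 2791 under vehicle and 4238, 7421 and 15615 in the doxorubicin mice by replicate. Neutrophil markers summed to 11.2 to 21.7 and to 55.0, 628 and 471, with 3 of 8 (Retnlg, Ly6g and Camp) at 0 in every vehicle library. Fibroblast markers summed to 6236 to 8274 and 8639, 22816 and 16406. Their highest sum was in replicate 2, which also held the highest doxorubicin value of 24 of the 41 genes. Dcn alone gave 18072 of that highest sum, and the list was divided. In replicate 2, Dcn, Pdgfra, Tcf21 and Col1a2 lay above every vehicle library and Col1a1 and Lum within the vehicle range. Col3a1 (740 against 1412 to 2268) and Postn (109 against 151 to 290) lay below it. Endothelial markers summed to 15296 to 19872 and 25284, 26930.0 and 33927. In replicate 2, Kdr lay below the vehicle range (2159 against 3448 to 4340), Cdh5 and Emcn within it and the rest above it. Mural markers summed to 6709 to 11781 and 8366, 11249.8 and 11840.4, with Rgs5 alone at 9595 in replicate 2. There Acta2 (190 against 735 to 1874), Myh11 (91.4 against 112 to 322) and Cspg4 (128 against 178 to 291) lay below the vehicle range. Pdgfrb, Kcnj8 and Tagln lay within it. Lymphocyte markers summed to 12.0 to 32.4 and 52.4, 6.01 and 10.4.

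**Figure D5:**
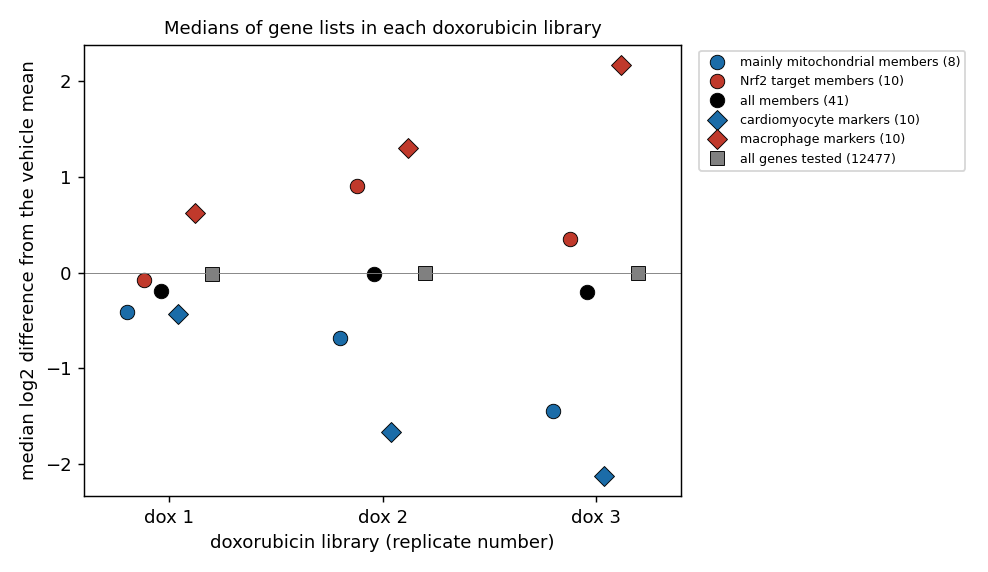
Median log2 difference from the vehicle mean in each doxorubicin library for the 41 genes, the mainly mitochondrial and Nrf2 target genes among them, 10 cardiomyocyte and 10 macrophage markers, and all 12477 genes tested. The Nrf2 target median is highest in doxorubicin 2, at 0.90, the macrophage median in doxorubicin 3, at 2.17, and both the mitochondrial and cardiomyocyte medians are lowest in doxorubicin 3.

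A further 69 genes of the same pathways were listed by function, of which 62 were tested. With all 6 libraries limma called 0 of them, and 15 were higher and 14 lower at an unadjusted p under 0.05, against 16.7% and 19.3% of all genes. Values separated without overlap in 13 on the higher and 16 on the lower side, against 19.2% and 22.6% of all genes. Of the other known Nrf2 targets all 9, each tested, had a positive log2 fold change, with a median of 1.01. Their values began at 0.010 in Slc48a1, and their medians were 0.38, 1.67 and 1.50 in replicates 1 to 3. Groups separated on the higher side in 5, against 19.2% of all genes, and overlapped in 4. With library weights or the Xist and Y-linked class as covariate, 8 were positive and 1 negative. It was the same without vehicle replicate 3, doxorubicin replicate 2 or doxorubicin replicate 3. Without replicate 1 their median was 1.62. Haem oxygenase, Hmox1, had the smallest unadjusted p of that list. Normalized counts of Hmox1 were 84.2, 91.5 and 73.5 under vehicle and 137, 1269.7 and 1269.8 after doxorubicin. Unlike Gclm or Srxn1, it was alike in replicates 2 and 3 and already above the vehicle range in replicate 1. Hmox1 differed by 2.86 (SE 0.79, limma adjusted p 0.0859) on the log2 scale.

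NADPH supply genes divided, with 4 of 10 positive and 6 negative and a median of -0.34. Tkt, transketolase of the pentose phosphate pathway, held 212, 227 and 201 normalized counts under vehicle and 311, 365 and 438 under doxorubicin, without overlap. Tkt differed by 0.79 (SE 0.17, limma adjusted p 0.0859) on the log2 scale. Of 8 partners and regulators of Nrf2, 5 were positive and 3 negative, and Cul3, the ubiquitin ligase scaffold that acts with Keap1, was lower without overlap. For Cul3, the vehicle mice gave 1473, 1517 and 1631 normalized counts and the doxorubicin mice 1308, 1119 and 935. Cul3 differed by -0.47 (SE 0.17, limma adjusted p 0.104) on the log2 scale.

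Methionine sulfoxide reductases, 4 tested, had a median of -0.67, and the mitochondrial Msrb2 was lower in every doxorubicin library than in any vehicle library. Msrb2 stood at 498, 469.6 and 425 normalized counts in the 3 vehicle mice, by replicate, and at 358, 199 and 141 in the 3 doxorubicin mice. Msrb2 differed by -1.10 (SE 0.31, limma adjusted p 0.0859) on the log2 scale. Other glutathione transferases, 10 tested of 13, divided into 5 positive and 5 negative, and Gsto1, the omega-class enzyme, was lower. Normalized counts of Gsto1 were 1099, 961 and 1033 under vehicle and 647, 557 and 385 after doxorubicin. Gsto1 differed by -0.99 (SE 0.21, limma adjusted p 0.0859) on the log2 scale.

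Genes of glutathione turnover and export, 9 tested of 11, had 2 positive and 7 negative values and a median of -0.41. Among them Glo1, the glyoxalase that uses glutathione to clear methylglyoxal, was lower without overlap. For Glo1, the vehicle mice gave 727, 798 and 855 normalized counts and the doxorubicin mice 607, 448 and 415. Glo1 differed by -0.71 (SE 0.18, limma adjusted p 0.0859) on the log2 scale. Among 12 tested of 14 other redox proteins, 4 were positive and 8 negative, and Nxn, nucleoredoxin, was higher without overlap. Nxn stood at 155, 131 and 125 normalized counts in the 3 vehicle mice, by replicate, and at 264, 315 and 352 in the 3 doxorubicin mice. All 3 doxorubicin libraries, replicate 1 included, were well above the vehicle range. Nxn differed by 1.17 (SE 0.17, limma adjusted p 0.0859) on the log2 scale.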

How the data were processed

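RNA-seq of isolated cardiomyocytes was taken as deposited. STAR alignment to mm10 in a BaseSpace application is stated per the series' design text, and STAR 2.6.1a and Salmon are listed per the submitters' processing notes. How reads were counted and scaled, and whether strand was used, is not given in the sources used here. Each deposited value is a normalized count, treated as a signal: it has no negative values and need not be whole. Their totals, divided by the most common low value, gave the estimated reads, which are approximate.

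Values plus a pseudocount of 1 were put on the log2 scale, and those genes whose 6 libraries averaged 10 or more were tested with limma 3.58.1 (R 4.3.3, empirical Bayes with trend, two-sided, Benjamini-Hochberg over all 12477 genes, threshold 0.05). The script was tested on simulated data. A fold change is doxorubicin minus vehicle of log2(value + 1), which understates the change of low genes, and it is precise only as far as the spread between 3 libraries allows. With 3 against 3, an exact two-sided permutation test of 1 gene cannot go below 0.10. Values in every library are given for a set of 21 genes and, per role, for the gene with the smallest p and that with the largest difference. From each further list the gene with the smallest p is named. Genes named besides these were chosen after their values were seen. The genes and lists were chosen with earlier results of these data known, so their directions are no independent support. Coordinates count from 1 and follow RefSeq on GRCm38.p6, the assembly that mm10 denotes. Shared sequence was found with BLAST 2.17.0, and figures were drawn with matplotlib 3.10.9. Alternatives were other pseudocounts, filters, scalings, moderation, library weights, a class covariate, a replicate block and leaving out each library.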

Additional observations from a re-analysis of the deposited data

How the results depend on the processing

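Library weights in limma called 1954 genes higher and 2318 lower, among them 9 and 9 of the 41 genes. Over the fits that leave out 1 library, the calls ran from 0 to 2409 higher and 0 to 2718 lower, and for the 41 genes from 0 to 9 higher and 0 to 12 lower. The high end in each case came without doxorubicin replicate 1, and leaving out replicate 2 called 1 gene lower. Under every other setting limma called 0 genes, with 3708 to 4940 genes at an unadjusted p under 0.05. Over the fits that leave out 1 library the median of the 41 genes ran from -0.30 without doxorubicin replicate 2 to -0.068 without vehicle replicate 1. With all 6 libraries it was -0.024 with quantile normalization, -0.057 with library weights, -0.055 with the class covariate and 0.21 with equal totals, which placed the median of all genes at 0.30.

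With all libraries kept, Sod1 was 0.17 with equal totals, 0.053 with quantile normalization, 0.082 with library weights and 0.012 with the Xist and Y-linked class as covariate, Gsta4 was 0.23, 0.20 and 0.15 with equal totals, weights and class, and Keap1 was 0.21 with equal totals. Leaving out 1 library at a time, the log2 fold change of Sod1 ran from -0.38 to 0.059, that of Gsta4 from -0.43 to 0.22, Cat from -0.30 to 0.31, Txnrd1 from -0.048 to 0.48, Glrx from -1.09 to 0.25, Nqo1 from -0.43 to 0.73 and Slc7a11 from -0.37 to 2.98. The sign turned without doxorubicin replicate 2 for Cat, Txnrd1, Glrx and Nqo1, without doxorubicin replicate 3 for Sod1, Gsta4 and Slc7a11, and for Gsta4 also without vehicle replicate 1, to 0.0039. The cause of these reversals was not tested. The other 17 of the 25 genes with values in every library kept their sign under every setting tried.

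With the replicate number as a block, limma called 0 genes and 0 of the 41, and the median of the 41 stayed at -0.093. Deviations of same-numbered libraries from their group means correlated at -0.128, 0.0331 and -0.0928 across genes. Between libraries of unlike number the values ran from -0.183 to 0.223. With 3 libraries in a group such values cannot show whether same-numbered mice were paired, and the labels do not say. A minimum mean of 50 leaves Slc7a11 untested. Depth limits the low values most: in 5 libraries Slc7a11 stood at a few estimated reads or none.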
